A study of Mus musculus with 12 samples.

Results

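Bone marrow-derived mast cells (BMMCs) in which siRNAs against Zc3h12c (encoding Regnase-3) had been added to siRNAs against Zc3h12a (encoding Regnase-1) were compared with BMMCs that received the Zc3h12a siRNAs alone. The groups are named si12A+C and si12A, and the 3 samples of each were paired by replicate number, which is taken to stand for 1 mouse, so that the comparison uses 6 of the 12 samples of the series. The other 6 samples, si12C (Zc3h12c siRNAs alone) and siGLO (a control siRNA), entered the shared estimate of the spread and the question whether the Zc3h12c siRNAs acted alike with and without the Zc3h12a siRNAs. All 12 samples came from bone marrow of mice on a C57BL/6 background, cultured with IL-3 for at least 4 weeks, electroporated with siRNA, kept for 48 h and then activated with IgE and antigen for 2 h. Transcripts were counted from 50 ng of RNA with the NanoString Myeloid Innate Immunity Panel, an assay that tags each RNA molecule with a barcoded probe and counts the barcodes, so that no amplification is needed. Of 754 endogenous and reference probes, 496 passed the background set by the negative controls and were tested.

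Regnase-1 and Regnase-3 are related endoribonucleases of the CCCH zinc finger family. Regnase-1 binds stem-loops in the 3′ untranslated regions of inflammatory mRNAs, cuts them and so shortens the life of transcripts such as those of interleukin-2, interleukin-6 and the nuclear IκB protein IκBζ. In mast cells, crosslinking of the IgE receptor by antigen switches on such transcripts within the first hours, and the amount of each mRNA depends on both its synthesis and its decay. Measuring si12A+C against si12A asks what a loss of Regnase-3 adds once Regnase-1 is already targeted.

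The sequences of the siRNAs carry the only designed difference between the groups, so all of them are given here 5′ to 3′ as the study lists them, as 19 bases each. The strand they represent is not stated, and no part of them is capitalised. The si12A+C cells received both mixtures and the si12A cells the second one. The RefSeq annotation places Zc3h12c on mouse chromosome 9 and Zc3h12a on chromosome 4.
si12C siRNA 1: gcccaagtctggataattt
si12C siRNA 2: gcacttaagttaggttatt
si12C siRNA 3: gcactacacctttaagcaa
si12C siRNA 4: ggatattattccatgttga
si12A siRNA 1: gcagagatcctgtcttaca
si12A siRNA 2: gagcgaggccacacagata
si12A siRNA 3: gaaatgtacgtatggaatc
si12A siRNA 4: gaaagggctggtgtatata
The 4 siRNAs of the si12C mixture held 6 to 8 G or C bases and the 4 of the si12A mixture 7 to 11, and the longest run shared between any siRNA of one and any of the other was 4 bases. Whether the total amount of siRNA was kept equal between si12A+C and si12A is not given in the sources used here. The panel holds 0 probes for the 4 Regnase genes (Zc3h12a to Zc3h12d), so the depletion itself could not be checked in these counts.

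The libraries of the 6 samples held 552609, 597551 and 781649 counts in si12A+C of mice 1, 2 and 3, against 726300, 700741 and 795758 in si12A. The synthetic positive control RNAs, which are added in equal amounts to each reaction, were counted 11626, 11666 and 23445 times in si12A+C, against 22669, 21648 and 24120 times in si12A. The positive controls of si12A thus exceeded those of si12A+C by 1.95, 1.86 and 1.03 times in mice 1, 2 and 3. Counts are given below scaled by TMM (trimmed mean of M-values), which sets the bulk of the probes equal between libraries. On this scale, the background limit lay between 14.4 and 27.7 scaled counts in si12A+C, against 16.1 and 24.7 in si12A. Relative to TMM, scaling on the positive controls moved the median log2 fold change of all probes to 0.31 and scaling on all 20 reference genes to 0.25, while the other scalings left it between -0.03 and -0.01. Among the reference genes, Sap130 had raw counts of 1, 1 and 58 in si12A+C, against 27, 23 and 65 in si12A, and Tbp had 1, 1 and 49 in si12A+C, against 24, 9 and 48 in si12A. Low values of Sap130 also occurred outside these groups, with 13.9, 1.42 and 46.2 scaled counts in si12C, against 25.7, 1.57 and 8.4 in siGLO. Within a mouse, the log2 counts of si12A+C and si12A correlated across probes at 0.982, 0.979 and 0.992.

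Adding the Zc3h12c siRNAs to the Zc3h12a siRNAs gave no gene that passed the test. The transcripts with the smallest p included Plau, Atf3, Dusp1, Csf1 and Nr4a1, which were lower in si12A+C in 3 of 3 mice, and Tnfrsf9, Nox1 and Adgre1, which were higher in 3 of 3 mice. At a Benjamini-Hochberg adjusted p of at most 0.05 and a log2 fold change beyond 0.5, edgeR's quasi-likelihood test with the mouse as a block called 0 of 496 probes higher (0%) and 0 lower (0%), with a smallest adjusted p of 0.155. At an unadjusted p of at most 0.05, with no fold minimum, 39 were higher (7.86%) and 31 lower (6.25%). DESeq2 called 0 higher and 3 lower (Atf3, Nr4a1 and Plau), and limma-trend 0 and 0, while limma-trend on the deposited log2 table of 325 probes called 10 and 4. Without mouse 1, 2 genes were called higher (Il2 and Rasal1), as was Rasal1 alone when only the 6 libraries were fitted. Scaled on the positive controls, 15 genes were called higher and 0 lower.

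The sizes of the differences bear on what these libraries could show. The log2 fold changes of all probes had a median of -0.01 and their central range, from the 5th to the 95th percentile, was -0.39 to 0.68, with a median standard error (SE) of 0.18. The 95% interval of the log2 fold change included 0 for 426 probes (85.9%), lay wholly between -0.5 and 0.5 for 193 (38.9%) and wholly between -1 and 1 for 421 (84.9%). In 95 probes (19.2%) si12A+C was higher than si12A in 3 of 3 mice, and in 105 (21.2%) it was lower. The 3 si12A+C values lay wholly above the 3 si12A values for 13 probes (2.62%) and wholly below for 15 (3.02%). By level, and with no test of the difference between the classes, the counts at an unadjusted p of at most 0.05 were as follows. Among 182 probes with a mean under 50 scaled counts, 17 were higher and 5 lower, among 193 with a mean from 50 to 500, 16 were higher and 16 lower, and among the 121 with a mean of at least 500, 6 were higher and 10 lower. The median SE was 0.28 in the lowest of these classes and 0.11 in the highest.

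**Figure D1:**
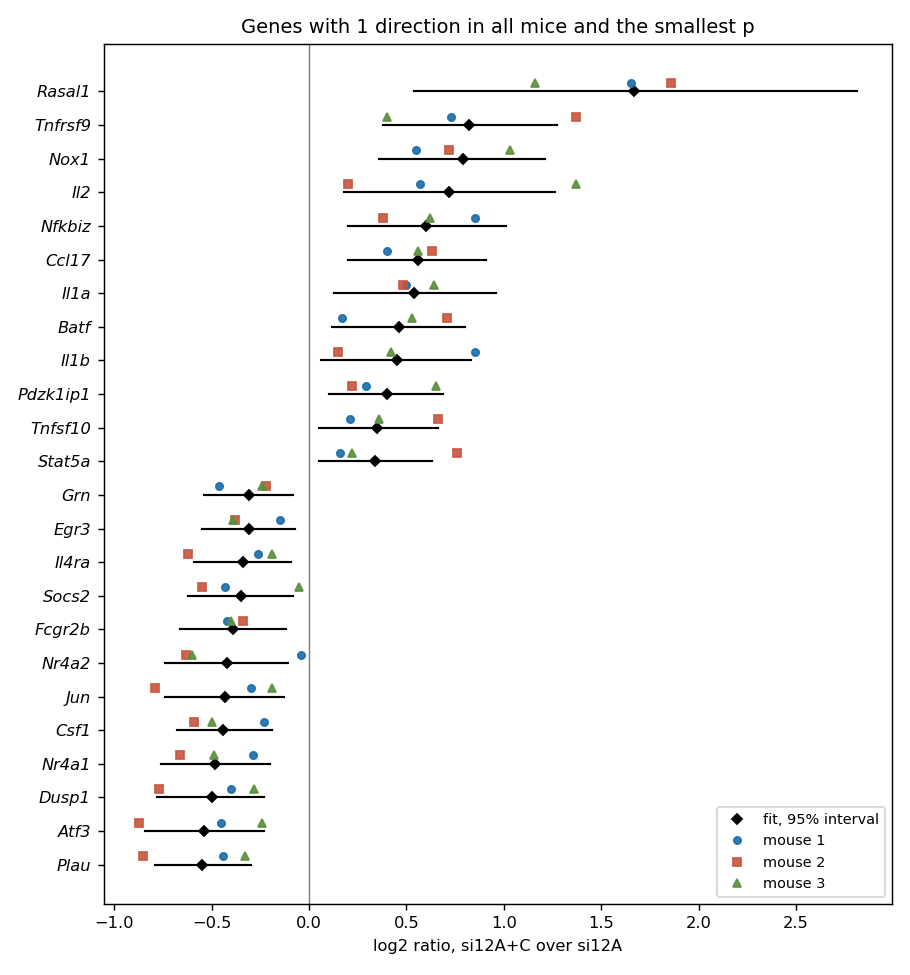
Log2 ratios of si12A+C over si12A for the 12 higher and the 12 lower genes with the smallest p among those with 1 direction in 3 of 3 mice and at least 50 scaled counts in the higher group. Coloured symbols are the ratios within each mouse and black diamonds the edgeR estimates with their 95% intervals (TMM scaling, n = 3 pairs); most lower genes had their lowest ratio in mouse 2, and no gene passed the adjusted test.

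Among the 6 transcripts that the study named (Tnf, Il1b, Il2, Nfkbiz, Il6 and Il13), some of which it picked out on these same samples, so that the group is not independent evidence of a direction, the fitted log2 fold changes lay between 0.11 and 0.72 with a median of 0.37. Of the 6, 5 were higher in si12A+C in 3 of 3 mice and 0 lower (over all probes 19.2% and 21.2%), and 0 passed the test. Il2, which encodes the T cell growth factor interleukin-2 and is a known Regnase-1 target, had 985, 2410 and 1240 scaled counts in si12A+C of mice 1, 2 and 3, against 662, 2100 and 477 in si12A. The value of si12A+C was the higher one in each mouse, but mouse 2 was far above the others in both groups, so the groups overlapped. The log2 fold change was 0.72 ± 0.25 (SE, 95% interval 0.18 to 1.26, adjusted p = 0.272). Nfkbiz, encoding IκBζ, a nuclear cofactor of NF-κB, had 1400, 2270 and 964 scaled counts in si12A+C, against 774, 1750 and 626 in si12A. It was higher in each mouse with overlapping groups, at 0.60 ± 0.19 (95% interval 0.20 to 1.01, adjusted p = 0.232).

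Il1b, encoding the pyrogenic cytokine interleukin-1β, had 216, 288 and 340 scaled counts in si12A+C, against 120, 259 and 254 in si12A, a log2 fold change of 0.45 ± 0.18 (adjusted p = 0.321). Mouse 2 showed little of this difference, with a log2 ratio of 0.15, against 0.85 and 0.42 in mice 1 and 3. Tnf, the gene of tumour necrosis factor, had 6770, 18500 and 6580 scaled counts in si12A+C, against 5130, 19300 and 4280 in si12A. It was higher in mice 1 and 3 and not in mouse 2, whose cells held by far the most Tnf transcripts in both groups. Its log2 fold change of 0.30 ± 0.15 had a 95% interval of -0.03 to 0.63 (adjusted p = 0.425). Il6 and Il13, encoding an acute-phase and a type 2 cytokine, were at 0.11 ± 0.12 and 0.13 ± 0.10, with 95% intervals of -0.15 to 0.36 and -0.08 to 0.33. Both were higher in 3 of 3 mice by small steps, and for neither did the interval reach 0.5.

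**Figure D2:**
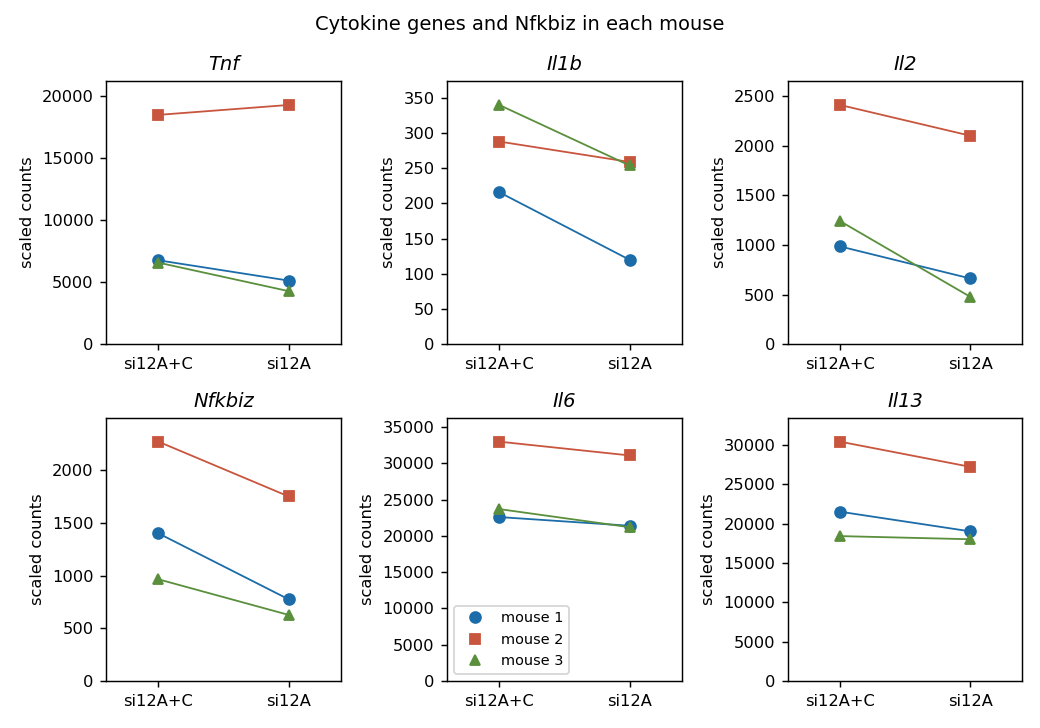
Scaled counts (TMM, linear axes from 0) of the 6 transcripts in each mouse, si12A+C on the left and si12A on the right, with a line joining the samples of 1 mouse. The line runs down to si12A in 3 of 3 mice for Il1b, Il2, Nfkbiz, Il6 and Il13, and in 2 of 3 for Tnf, where mouse 2 had 18500 in si12A+C and 19300 in si12A.

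The call on these transcripts depended on the scaling. Scaled on the positive controls, Tnf, Il1b, Il2 and Nfkbiz were all called higher, at log2 fold changes of 0.66, 0.80, 1.06 and 0.98, where the median of all probes was 0.31. Scaled on all reference genes, Il2 alone was called (0.98, with the median of all probes at 0.25). That scale includes Sap130 and Tbp, which had raw counts of 1 in si12A+C of mice 1 and 2. Sap130 was also low in si12C and siGLO of mouse 2, at 1.42 and 1.57 scaled counts. The reference genes with at least 100 counts in each library leave out Sap130 and Tbp, but also others such as Abcf1 and Sdha. On that smaller set, the median of all probes was -0.01, and the comparison cannot single out Sap130 and Tbp. What Sap130 and Tbp add to the shift was not tested. With the reference genes of at least 100 counts in each library, with DESeq2's size factors and with TMM, none of the 6 was called, and Il2 was at 0.69, 0.69 and 0.72. All 6 were above 0 under every scaling run.

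**Figure D3:**
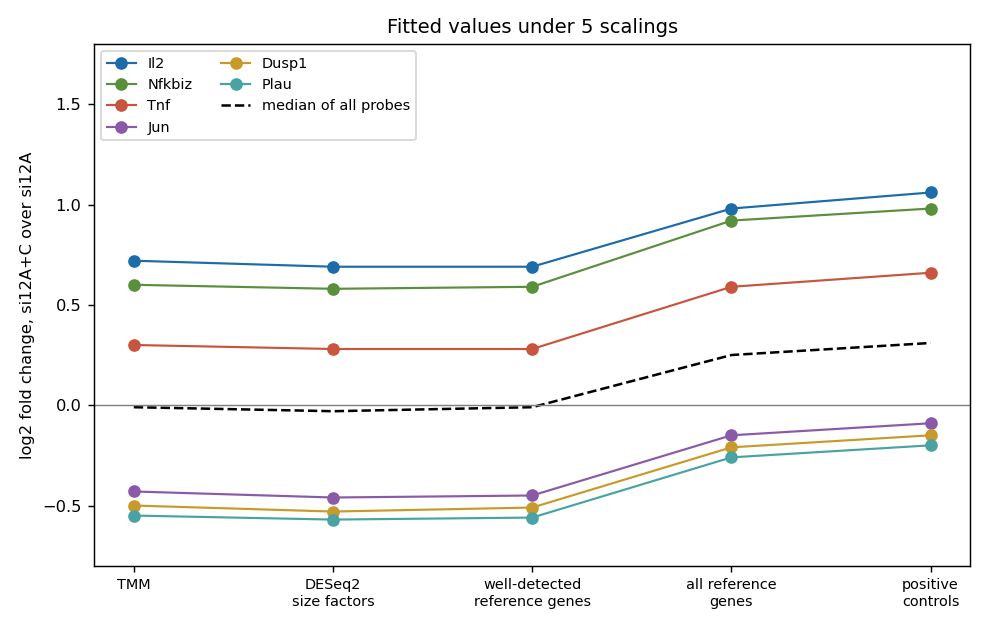
Fitted log2 fold change of si12A+C over si12A (edgeR, mouse as a block) for Il2, Nfkbiz, Tnf, Jun, Dusp1 and Plau under 5 scalings, with the median of all 496 probes as a dashed line. The dashed line lies at -0.01 with TMM and at 0.31 with the positive controls. Il2, Nfkbiz and Tnf lie above it and Jun, Dusp1 and Plau below it under each scaling. These places are nearly fixed, since a scaling moves all probes of a library nearly alike.

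Of 32 cytokine and growth factor genes tested, 11 were higher in 3 of 3 mice and 2 lower, beside shares of 19.2% and 21.2% over all probes. None passed the test (0 of 32), and the median log2 fold change was 0.08, against -0.01 over all probes. Il1a, the gene of interleukin-1α, had 261, 911 and 544 scaled counts in si12A+C, against 184, 653 and 349 in si12A (log2 fold change 0.54 ± 0.19, adjusted p = 0.272). Its ratio was similar in the 3 mice while its level was not, so the groups overlapped. Il33, encoding the alarmin interleukin-33, was at 0.66 ± 0.27 from 46.7, 71.7 and 43.2 scaled counts in si12A+C, against 24.4, 48.9 and 29.4 in si12A. Csf1 ran the other way. This gene of macrophage colony-stimulating factor had 5360, 5760 and 3750 scaled counts in si12A+C, against 6270, 8650 and 5290 in si12A, a log2 fold change of -0.44 ± 0.11 (adjusted p = 0.155), and it was lower in each mouse. Csf2 (granulocyte-macrophage colony-stimulating factor) at 0.18 ± 0.19 and Il4 (interleukin-4) at 0.12 ± 0.12 had intervals that included 0.

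In the TNF superfamily, 4 of 10 tested ligands and receptors were higher in 3 of 3 mice and 1 lower (over all probes 19.2% and 21.2%). Their median log2 fold change was 0.29. Tnfrsf9, which encodes the costimulatory receptor 4-1BB, had 67.9, 89.9 and 68.0 scaled counts in si12A+C, against 40.5, 34.1 and 51.4 in si12A. Each si12A+C value was above each si12A value, at a log2 fold change of 0.82 ± 0.21 (95% interval 0.38 to 1.27, adjusted p = 0.155). The same transcript stood at 68.7, 67.0 and 71.1 in si12C cells and at 67.0, 50.3 and 81.9 in siGLO cells, so the si12A libraries were the low ones of the 4 groups in mice 1, 2 and 3. Tnfsf10, the gene of the death ligand TRAIL, was at 0.35 ± 0.14 with 270, 36.5 and 273 scaled counts in si12A+C, against 233, 22.8 and 212 in si12A. Its level in mouse 2 was near the background limit in both groups. Cd40, encoding a costimulatory receptor of antigen-presenting cells, was at 1.27 ± 0.44 (adjusted p = 0.272), with 62.6, 65.2 and 16.8 scaled counts in si12A+C, against 22.8, 17.1 and 14.7 in si12A. It passed the background in 3 of 3 libraries of si12A+C and in 1 of 3 of si12A.

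Of 19 chemokine ligand genes tested, 11 were higher in si12A+C in 3 of 3 mice and 2 lower (over all probes 19.2% and 21.2%). Their median log2 fold change was 0.24, and 0 passed the test. Ccl17, a ligand of the chemokine receptor CCR4, had 59.4, 457 and 106 scaled counts in si12A+C, against 44.7, 295 and 72.0 in si12A (0.56 ± 0.16, adjusted p = 0.232). The ratio lay between 0.40 and 0.63 on the log2 scale in the 3 mice. Ccl9 was at 0.47 ± 0.20 with 870, 1470 and 837 scaled counts in si12A+C, against 747, 888 and 645 in si12A, Ccl5 at 0.42 ± 0.18 and Cxcl2 at 0.47 ± 0.21. The CC chemokines with the highest counts differed less, with Ccl3 at 0.16 ± 0.10, Ccl4 at 0.11 ± 0.11 and Ccl1 at 0.24 ± 0.12. The 2 ligands lower in 3 of 3 mice were the monocyte attractants Ccl2 at -0.10 ± 0.10 and Ccl7 at -0.17 ± 0.12, and both were above 0 (0.24 and 0.17) when scaled on the positive controls and on all reference genes (0.18 and 0.10). Ccl26, an eotaxin, had the largest value of the group at 1.41 ± 0.54, but with 98.6, 141 and 17.6 scaled counts in si12A+C, against 32.9, 25 and 22.8 in si12A, it was lower in mouse 3. Under the 5 scalings the median of the chemokine ligands was 0.24 to 0.26 above that of all probes. A scaling moves all probes of a library nearly alike on the log2 scale, so this distance could hardly change and adds no support. Under these scalings, 10 to 12 of the 19 were higher in 3 of 3 mice. The same count over all 496 probes was 95 with TMM, 82 with DESeq2's size factors and 81 on well-detected reference genes. It rose to 211 on the positive controls and to 230 on all reference genes.

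Genes of early activation, a list of transcription factors, phosphatases and other products that are induced within the first hours of a stimulus, lay on the other side with TMM scaling. Of 29 tested, 10 were lower in si12A+C in 3 of 3 mice and 1 higher (over all probes 21.2% and 19.2%), and 0 passed the adjusted test. At an unadjusted p of at most 0.05, 8 were lower and 0 higher (over all probes 6.25% and 7.86%). The median log2 fold change was -0.11, which turned to 0.24 when scaled on the positive controls and to 0.18 on all reference genes. It was 0.07 to 0.12 below the median of all probes under each of the 5 scalings. A scaling moves all probes of a library nearly alike, so this distance could hardly change between them. Of the same 29, 11 were then higher in 3 of 3 mice and 2 lower when scaled on the positive controls, 10 and 2 with all reference genes, and 3 and 6 on the reference genes with at least 100 counts in each library. Over all 496 probes, the counts higher and lower were 211 and 7, 230 and 12, and 81 and 98 on the same 3 scales.

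Atf3, a stress-induced transcription factor, had 654, 1420 and 661 scaled counts in si12A+C, against 896, 2600 and 778 in si12A (log2 fold change -0.54 ± 0.14, 95% interval -0.84 to -0.23, adjusted p = 0.155). The difference was present in each mouse and widest in mouse 2, whose cells held the most Atf3 in both groups. Dusp1, a phosphatase that switches off MAP kinases, had 151, 335 and 114 scaled counts in si12A+C, against 200, 570 and 138 in si12A (-0.50 ± 0.13, adjusted p = 0.155). Its relative Dusp6, which acts on ERK, was at -0.44 ± 0.17 with 311, 739 and 338 in si12A+C, against 368, 1440 and 340 in si12A. In mouse 3 the values of Dusp6 were nearly equal, so its difference lay in mice 1 and 2. The orphan nuclear receptor Nr4a1 had 2160, 3570 and 1030 scaled counts in si12A+C, against 2640, 5640 and 1450 in si12A (-0.48 ± 0.13, adjusted p = 0.155), and Nr4a2 was at -0.42 ± 0.15.

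Jun, a subunit of the transcription factor AP-1, had 425, 327 and 426 scaled counts in si12A+C, against 523, 567 and 487 in si12A. All 3 si12A+C values were below all si12A values (-0.43 ± 0.14, adjusted p = 0.254). The AP-1 gene Fosb was at -0.28 ± 0.15 and the zinc finger genes Egr3 and Egr2 at -0.31 ± 0.11 and -0.40 ± 0.17, Egr2 with 1 of 3 mice higher. Egr3 and Fosb turned to 0.05 and 0.08 when scaled on the positive controls. Ier3, another early gene and a known Regnase-1 target, was at 0.05 ± 0.11. Without the si12A+C library of mouse 2, the number of probes at an unadjusted p of at most 0.05 was 12 lower and 21 higher over the whole panel and the smallest adjusted p was 0.678.

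Plau, encoding the urokinase plasminogen activator, had the smallest p of the panel. It had 479, 713 and 491 scaled counts in si12A+C, against 650, 1290 and 620 in si12A, and was lower in each mouse although the groups overlapped. The log2 fold change was -0.55 ± 0.11 (95% interval -0.79 to -0.30, adjusted p = 0.155), and -0.20 when scaled on the positive controls. Nox1, a catalytic subunit of NADPH oxidase, had 80.6, 100 and 88.0 scaled counts in si12A+C, against 54.8, 60.3 and 42.6 in si12A. The groups did not overlap, at 0.79 ± 0.20 (95% interval 0.36 to 1.21, adjusted p = 0.155). Rasal1, a GTPase-activating protein for Ras, had the highest fitted value, 1.67 ± 0.52 (adjusted p = 0.232), with 81.7, 102 and 17.6 scaled counts in si12A+C, against 25.3, 27.3 and 7.35 in si12A. The value of 7.35 lies below the background limit of that library.

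In signalling downstream of receptors the values went both ways. Over all probes, 19.2% were higher and 21.2% lower in 3 of 3 mice. Of 18 genes of NF-κB signalling and feedback, 5 were higher in 3 of 3 mice and 5 lower, with a median of -0.03. Traf1, an adaptor of TNF receptors, was at 0.34 ± 0.18 and Birc2, the ubiquitin ligase cIAP1, at -0.42 ± 0.19, from 32.9, 32.6 and 46.4 scaled counts in si12A+C, against 55.6, 38.7 and 55.1 in si12A. Of 10 JAK-STAT genes, 3 were higher and 3 lower in 3 of 3 mice, with a median of -0.05. Stat5a, which carries IL-3 signals in mast cells, had 187, 132 and 318 scaled counts in si12A+C, against 167, 77.4 and 273 in si12A (0.34 ± 0.13, adjusted p = 0.321). Stat4, which carries interleukin-12 signals in lymphocytes, had 50.9, 36.5 and 51.2 in si12A+C, against 69.1, 69.4 and 58.8 in si12A, with no overlap of the groups (-0.49 ± 0.19, adjusted p = 0.321). The feedback inhibitors Socs1 and Socs2 were at 0.12 ± 0.12 and -0.35 ± 0.12. Batf, an AP-1 family factor, was at 0.46 ± 0.16 with 344, 168 and 624 scaled counts in si12A+C, against 305, 102 and 431 in si12A. Il4ra, the receptor chain shared by interleukin-4 and interleukin-13, was at -0.34 ± 0.12.

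**Figure D4:**
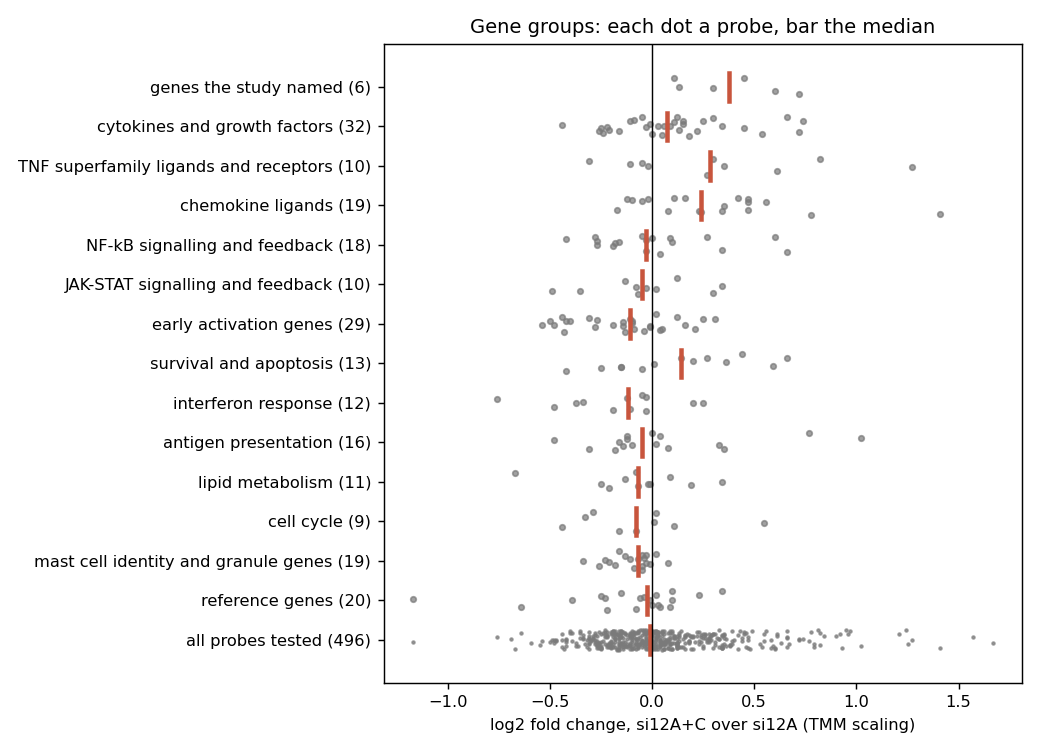
Log2 fold changes of si12A+C over si12A (TMM scaling) of the tested members of 14 gene groups and of all 496 probes, each dot a probe and each bar the median of its row. The chemokine ligand median lies at 0.24 and the early activation median at -0.11. The early activation median is above 0 with the positive controls (0.24) and with all reference genes (0.18) as the scale, where the median of all probes is 0.31 and 0.25.

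The cells kept the transcripts of mast cells in both groups. All 19 mast cell identity and granule genes passed the background in each library, and their scaled counts summed to 162000 to 209000 in si12A+C, against 182000 to 226000 in si12A. Of the 19, 1 was higher and 6 were lower in 3 of 3 mice (over all probes 19.2% and 21.2%). Their median log2 fold change of -0.07 turned to 0.25 and 0.19 when scaled on the positive controls and on all reference genes. The median of all probes was then 0.31 and 0.25. Kit, the receptor for stem cell factor, had 678, 339 and 675 scaled counts in si12A+C, against 820, 566 and 704 in si12A (-0.34 ± 0.13, adjusted p = 0.321). It was lower in each mouse, most so in mouse 2. Ms4a2, the β chain of the IgE receptor, was at -0.23 ± 0.11 and turned to 0.10 and 0.04 under those scalings, while Fcer1a, its α chain, was at -0.04 ± 0.08 and the granule protease gene Cpa3 at -0.07 ± 0.12, with both of these also above 0 under those scalings (0.29 and 0.25 on the positive controls). In such bulk RNA, fewer cells of a kind and less RNA per cell cannot be told apart.

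Markers of other cells were read from 5 lists. Of 18 macrophage and monocyte markers, 9 never passed the background in any of the 6 libraries, among them the defining genes Csf1r and Mertk and the 3 C1q chains, and the summed level was 2340 to 4670 in si12A+C, against 2410 to 4420 in si12A. Most of that sum came from Ly6c1, with 2010, 4230 and 3120 scaled counts in si12A+C, against 2100, 4090 and 2750 in si12A. Of the 7 macrophage and monocyte markers tested, 6 had a log2 fold change above 0, with a median of 0.28. Of these 7, 2 were higher and 1 lower in 3 of 3 mice (over all probes 19.2% and 21.2%). Adgre1, encoding F4/80, had 31.8, 83.4 and 24.8 scaled counts in si12A+C, against 13.5, 34.1 and 19.1 in si12A (0.97 ± 0.24, adjusted p = 0.155). It passed the background in 3 of 3 libraries of si12A+C and in 2 of 3 of si12A, so its fold rests partly on values near that limit. Cd68 was at 0.28 ± 0.18. Summed levels of neutrophil markers were 91.2 to 111 in si12A+C, against 80.8 to 106 in si12A. Ly6g, Elane, S100a8 and S100a9 were never above background, but Mmp8 was above it in 5 of 6 libraries and Mpo in 3 of 6. Of the 3 neutrophil markers tested, 2 were higher and 0 lower in 3 of 3 mice (over all probes 19.2% and 21.2%). Dendritic cell markers summed to 51.2 to 77.4 in si12A+C, against 51.4 to 78.5 in si12A, with 4 of 6 markers never above background. Eosinophil markers summed to 241 to 284 in si12A+C, against 216 to 264 in si12A, with 5 of 8 never above background but Siglecf and Ccr3 above it in 6 of 6 libraries. Lymphocyte markers summed to 122 to 195 in si12A+C, against 143 to 148 in si12A, with 6 of 10 never above background and Nkg7 above it in 6 of 6 libraries. Whether the few transcripts of other cells bear on Adgre1 or Cd40 was not tested.

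The counts of this paragraph stand beside shares of 19.2% higher and 21.2% lower in 3 of 3 mice over all probes. Of 13 survival and apoptosis genes, 6 were higher and 3 lower in 3 of 3 mice, with a median of 0.14. Bid, a pro-apoptotic member of the BCL2 family, had 102, 139 and 72.0 scaled counts in si12A+C, against 67.4, 84.2 and 52.9 in si12A (0.59 ± 0.24, adjusted p = 0.321), and was higher in each mouse. Of 9 cell cycle genes, 4 were lower and 0 higher in 3 of 3 mice, and by the fitted value 5 were below 0 and 4 above, with a median of -0.08. Ccnb2, cyclin B2, was at -0.29 ± 0.15 and Mcm5, a subunit of the replicative helicase, at 0.55 ± 0.29 with mouse 3 running the other way. Of 12 interferon response genes, 5 were lower and 1 higher in 3 of 3 mice, with a median of -0.12. Irf1, an interferon-induced transcription factor, had the lowest value among them, -0.76 ± 0.32, at 14.8, 11.7 and 9.60 scaled counts in si12A+C, against 27.0, 18.2 and 16.2 in si12A, which lies at the background. Psme2, a subunit of the proteasome activator, was the higher one at 0.20 ± 0.09, with 938, 1120 and 1170 scaled counts in si12A+C, against 863, 878 and 1050 in si12A. Antigen presentation (16 genes) and lipid metabolism (11 genes) had medians of -0.05 and -0.07. The medians of the cell cycle, interferon, antigen presentation and lipid groups were all above 0 when scaled on the positive controls, at 0.26, 0.18, 0.26 and 0.25, and on all reference genes, at 0.20, 0.13, 0.20 and 0.19. The median of all probes was 0.31 and 0.25 on these scales. It moves together with the groups, so their place below it is no separate result. Of the 20 reference genes, 4 were higher and 4 lower in 3 of 3 mice, and Tubb5, a β-tubulin, had 148, 149 and 154 scaled counts in si12A+C, against 219, 203 and 176 in si12A (-0.39 ± 0.15, adjusted p = 0.321).

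The Zc3h12c siRNAs were also given without the Zc3h12a siRNAs, in si12C against siGLO, and the 2 differences share mice but no library. In the interaction test, which sets the difference of si12A+C and si12A against that of si12C and siGLO, 0 of 496 probes passed (0%, smallest adjusted p = 0.543), and 40 (8.06%) had an unadjusted p of at most 0.05. DESeq2 and limma-trend also called 0, limma-trend on the deposited log2 table called 14, and the test without mouse 1 called 2 (Rasal1 and Sap130). Sap130 passed the background in 6 of the 12 libraries. Across the 496 probes the 2 fold changes showed a Pearson correlation of -0.01, given as a description since probes are not independent replicates. For si12C against siGLO the same test called 2 probes higher (0.403%) and 0 lower (0%), and 30 (6.05%) had an unadjusted p of at most 0.05. The 2 were Ier3 (0.65 ± 0.11, adjusted p = 0.029) and Tnf (0.79 ± 0.15, adjusted p = 0.0459), whose calls were not rerun under the alternatives.

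Il2 and Nfkbiz were above 0 in both differences. Il2 was at 0.72 ± 0.25 with the Zc3h12a siRNAs and at 1.03 without them, and Nfkbiz at 0.60 ± 0.19 and 0.46, with interaction values of -0.31 and 0.15. Tnf was at 0.30 ± 0.15 with the Zc3h12a siRNAs and at 0.79 without them, from 6780, 13300 and 5410 scaled counts in si12C, against 3200, 9400 and 3240 in siGLO (interaction -0.49, adjusted p = 0.543). Both differences of Tnf were above 0, and the wider one was that without the Zc3h12a siRNAs.

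Ier3 had the smallest p of the interaction. It had 5010, 5810 and 5310 scaled counts in si12A+C, against 4930, 6780 and 4220 in si12A, and 6760, 9520 and 5750 in si12C, against 4280, 5910 and 3840 in siGLO. The si12C values were above those of siGLO in each mouse, and with the Zc3h12a siRNAs present mouse 2 ran the other way, which gave an interaction of -0.59 ± 0.16 (adjusted p = 0.543). Dusp1 was at -0.50 with the Zc3h12a siRNAs and at 0.16 without them (interaction -0.66, adjusted p = 0.543), with 127, 352 and 102 scaled counts in si12C, against 135, 272 and 89.2 in siGLO. The si12A libraries of mice 1, 2 and 3 held the highest Dusp1 values of the 4 groups, at 200, 570 and 138. Tgm2, a transglutaminase, was at -0.04 with the Zc3h12a siRNAs and 0.58 without them. Crabp2, a retinoic acid binding protein, was at 0.28 with them and -0.25 without.

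**Figure D5:**
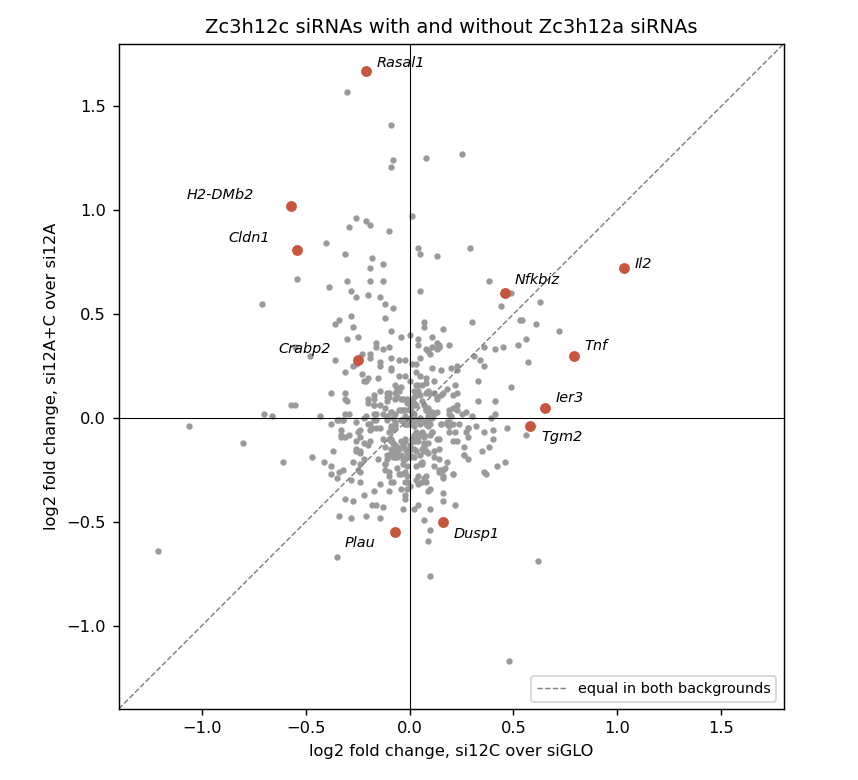
Log2 fold change of si12A+C over si12A (vertical) against that of si12C over siGLO (horizontal) for 496 probes, with equal values on the dashed line. Il2, Nfkbiz and Tnf lie above 0 on both axes, Ier3 and Tgm2 near 0 on the vertical axis, and Cldn1, H2-DMb2 and Crabp2 above 0 on the vertical and below 0 on the horizontal axis; no probe passed the interaction test.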

How the data were processed

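The authors deposited raw NanoString probe counts (734 endogenous, 20 reference, 8 negative and 6 positive control probes) for 12 samples, and a table of log2 values for 325 probes whose normalization is not described in the sources at hand. Their methods name the nSolver software, the Omics Playground platform and thresholds on fold and p, but no model and no adjustment of p. The fold minimum is theirs, while the p threshold is applied here to the Benjamini-Hochberg adjusted p. Probes entered the fit if they exceeded, in at least 3 libraries, the negative control mean of that library by more than 2 SD. The model was fitted to the counts in edgeR 4.0.16 under R 4.3.3 (TMM, quasi-likelihood F test, 12 libraries, coefficients for group and mouse), with Benjamini-Hochberg adjustment over 496 probes. The SE is the absolute log2 fold change over the square root of F. Ratios within a mouse use a pseudocount of 1. The comparison pairs the samples, so the mouse is a block: the closest library was one of the same mouse for 12 of 12, and deviations from the group means correlated at 0.137 to 0.859 over 18 pairs of the same mouse and at -0.745 to 0.63 over 36 pairs of different mice. Among the pairs of libraries within a group, no 2 agreed within sampling noise (chi-square per degree of freedom of at least 15). Pairs from different groups were not examined in this way.

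Named genes were the 6 of the study, the 12 higher and 12 lower with the smallest p among those with 1 direction in 3 of 3 mice and at least 50 scaled counts, up to 4 per list, 5 of the interaction and genes called under an alternative. Fosb, Egr2, Dusp6, Il33, Il4, Csf2, Ccl1 to Ccl5, Ccl7, Cxcl2, Fcer1a, Cpa3, Nlrp3, Cytip and Tbp were added after their values were seen. Members, lists and tests were chosen with earlier results of these data known. DESeq2 1.42.0, limma 3.58.1, other scalings and left-out libraries served as alternatives. The scripts were tested on simulated data. With 3 pairs, an exact two-sided sign-flip test cannot go below p = 0.25, so single genes were tested only in the fit across all probes. Replicates come from separate mice by the series' design. The single value of 1 gene that the naming rule selects is not reported here.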

Additional observations from a re-analysis of the deposited data

Results flagged for a closer look

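Of 496 probes, 21 (4.23%) had every within-mouse ratio on one side of 0 in si12A+C over si12A and on the opposite side in si12C over siGLO. The 5 given here are those among the named genes, and none of them passed the interaction test after adjustment. Cldn1, which encodes a tight junction protein, had 21.2, 27.4 and 14.4 scaled counts in si12A+C, against 10.1, 13.7 and 11 in si12A, and 12.2, 22.8 and 14.8 in si12C, against 14.7, 34.6 and 24.1 in siGLO. These values lie near the background, and the interaction was 1.35 ± 0.41 on the log2 scale (adjusted p = 0.543). Crabp2 had 238, 244 and 319 scaled counts in si12A+C, against 226, 178 and 254 in si12A, and 311, 246 and 423 in si12C, against 350, 305 and 514 in siGLO. It was well above background in all of these libraries, with an interaction of 0.54 ± 0.17 (adjusted p = 0.543). H2-DMb2, a chain of the peptide-loading molecule of MHC class II, had 70, 66.5 and 18.4 scaled counts in si12A+C, against 25.3, 41 and 12.5 in si12A. It had 20, 98.3 and 32.3 in si12C, against 27.5, 151 and 48.3 in siGLO. It passed the background in 2 of 3 libraries of si12A. The interaction of H2-DMb2 was 1.58 ± 0.63 (adjusted p = 0.543). For Fasn, the fatty acid synthase, it was 0.35 ± 0.16 (adjusted p = 0.62), and for the MHC class I gene H2-D1 it was -0.21 ± 0.13 (adjusted p = 0.685).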

How the results depend on the processing

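Without the replicate block (no term for the mouse), 0 genes were called higher, 0 lower and 0 in the interaction, with 11 higher and 3 lower at an unadjusted p and a smallest adjusted p of 0.999. Calls higher numbered 15 scaled on the positive controls, 1 on all reference genes (Il2), 10 in the deposited log2 table, 1 with only the 6 libraries (Rasal1) and 27 at an unadjusted p with the fold minimum. Calls lower numbered 3 with DESeq2, 4 in the deposited table and 7 at an unadjusted p, and the interaction called 14 in the deposited table. Leaving out a mouse or a library gave 0 to 2 higher, 0 to 0 lower and 0 to 2 in the interaction, with 2 higher (Il2 and Rasal1) and 2 in the interaction (Rasal1 and Sap130) without mouse 1. The cause was not tested. The other settings run (DESeq2 size factors, well-detected reference genes, no filter, a stricter filter, background subtraction, limma-trend and no fold minimum) called 0 in all 3.

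Values that changed sign when scaled on the positive controls were Grn 0.01, Egr3 0.05, Ms4a2 0.10, Lat2 0.06, Alox5 0.18, Ccnb2 0.03, H2-D1 0.18, Tlr4 0.04, Tlr12 0.01, Polr2a 0.10, Mpo 0.06, Cd247 0.10, Tgm2 0.23, Fosb 0.08, Ccl2 0.24, Ccl7 0.17, Cytip 0.03, Fcer1a 0.29 and Cpa3 0.25. On all reference genes they were Ms4a2 0.04, Lat2 0.00, Alox5 0.13, H2-D1 0.13, Tlr4 0.01, Polr2a 0.06, Cd247 0.06, Tgm2 0.22, Fosb 0.02, Ccl2 0.18, Ccl7 0.10, Fcer1a 0.23 and Cpa3 0.19. The median of all probes was 0.31 on the positive controls and 0.25 on all reference genes. The latter scale includes Sap130 and Tbp, with raw counts of 1 in si12A+C of mice 1 and 2. Sap130 was also low in si12C and siGLO of mouse 2, at 1.42 and 1.57 scaled counts. Ier3 was at -0.01 with background subtracted, and Tgm2 at 0.06 in the deposited table. With each mouse left out, Mpo ran from -0.42 to 0.16, Tgm2 from -0.07 to 0.02, Fcer1a from -0.06 to 0.02, Cpa3 from -0.16 to 0.03, Mx1 from -0.87 to 0.04, Cd247 from -0.45 to 0.34 and Ier3 from -0.06 to 0.19. Probes with a mean under 50 scaled counts had a median SE of 0.28, against 0.11 for those of at least 500.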

Other observations

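Genes that were tightly grouped within si12A+C and within si12A were also found outside the lists, all of them chosen after their values were seen. Nlrp3, the sensor of an inflammasome, had 247, 253 and 255 scaled counts in si12A+C, against 319, 330 and 323 in si12A. The 3 values of each group lay close together and the groups did not overlap, at a log2 fold change of -0.36 ± 0.15 (adjusted p = 0.321). Cytip, a scaffold protein of activated leukocytes, had 290, 293 and 302 in si12A+C, against 329, 373 and 391 in si12A (-0.30 ± 0.11, adjusted p = 0.272). Its log2 fold change turned to 0.03 when scaled on the positive controls. In si12C over siGLO, the log2 ratios of Cytip were also below 0, at -0.21, -0.26 and -0.37 in mice 1, 2 and 3.

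Detection differed for a few weakly expressed probes. Of the 496 probes, 11 were above background in 3 of 3 libraries of si12A+C and in fewer than 2 of si12A, and 2 showed the reverse (Cd99 and Sap130). The limit itself differed, at 17.6, 27.7 and 14.4 scaled counts in si12A+C of mice 1, 2 and 3, against 19.6, 24.7 and 16.1 in si12A. A probe above background only in the 3 libraries of 1 group also passed the filter. Ptprb, a receptor tyrosine phosphatase, had 47.7, 62.5 and 21.6 scaled counts in si12A+C, against 16, 26.2 and 12.5 in si12A (1.25 ± 0.36, adjusted p = 0.215). It is among the 11, which are defined by their difference in detection, so its fold is not independent of that choice. Since Ptprb passed the background in 1 of 3 libraries of si12A, its fold rests on values near or below that limit.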
